A study of Mus musculus with 22 samples.

Results

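Rostral spinal cord taken from above T6 at 24 h after the aorta had been clamped was compared with rostral cord after a sham operation. The arrays were chosen by their source names and make up 7 of the 22 arrays of the series, 3 from 24 h after the clamp (numbered 281, 282 and 283 in their titles) and 4 from sham (277 to 280). All samples came from wild-type C57Bl/6 mice of 10 to 12 weeks, and clamped mice had the aorta closed for 7.5 min. Caudal cord from below T6 at 24 h (3 arrays) and after sham (3 arrays), and rostral cord at 48 h (4 arrays), are used beside them. Total RNA was hybridised to Affymetrix Mouse430_2 arrays, and every value below is a log2 signal (RMA) or a difference of such signals, in which 1 unit is a 2-fold change. The labels give neither the time after the sham operation nor the sex of the mice, and do not state whether each array is its own animal, so that p-values measure the spread between these arrays, which may be technical. Clamped and sham arrays carry separate blocks of title numbers, and anything tied to that order cannot be told apart from the clamp. In whole cord, fewer cells of a type and less RNA per cell cannot be told apart either.

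Clamping the aorta stops flow to the segmental arteries that feed the lower cord, whereas the upper cord also receives blood from the vertebral arteries. Rostral tissue of a clamped mouse may thus be exposed to the operation, to release of the clamp and to signals from the lower cord. Blood supply was not measured in these samples, and none of these exposures was tested. Cord ischaemia is known for activation of microglia and astrocytes, induction of chemokines and entry of neutrophils and monocytes, and hypoxia is known to induce glycolytic and angiogenic genes through hypoxia-inducible factors.

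The tissue label was checked against marker genes. Neuronal Map2 (12.31 to 12.61 at 24 h and 12.24 to 12.43 in sham), astrocytic Aqp4 (12.15 to 12.38 and 12.30 to 12.51), myelin Mog (10.67 to 10.88 and 10.87 to 11.04) and microglial P2ry12 (at least 7.89 and at least 8.58) were present on all 7 arrays. The region genes of array 283 went against its label. Hoxc10, a homeobox gene of lumbar identity, had a signal of 10.14 on 24 h array 283, against 5.38 and 5.75 on 24 h arrays 281 and 282 and 5.35 to 6.22 on the sham arrays. Hoxd10, of the same posterior identity, had 9.41 on array 283, against 4.40 on array 281, 4.05 on array 282 and 4.14 to 4.71 in sham. Hoxc5, which marks more anterior cord, was at 6.07 on array 283, against 8.43 on array 281, 8.33 on array 282 and 8.20 to 8.48 in sham. The caudal array of the same number showed the opposite pattern, with Hoxc10 at 5.67 and Hoxc5 at 8.22. Differences between 24 h and sham are therefore given with array 283 and without it, in that order where a pair of values stands alone. The median correlation of array 283 with the other 6 arrays was 0.9955, against 0.9967 to 0.9977 for those.

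**Figure D1:**
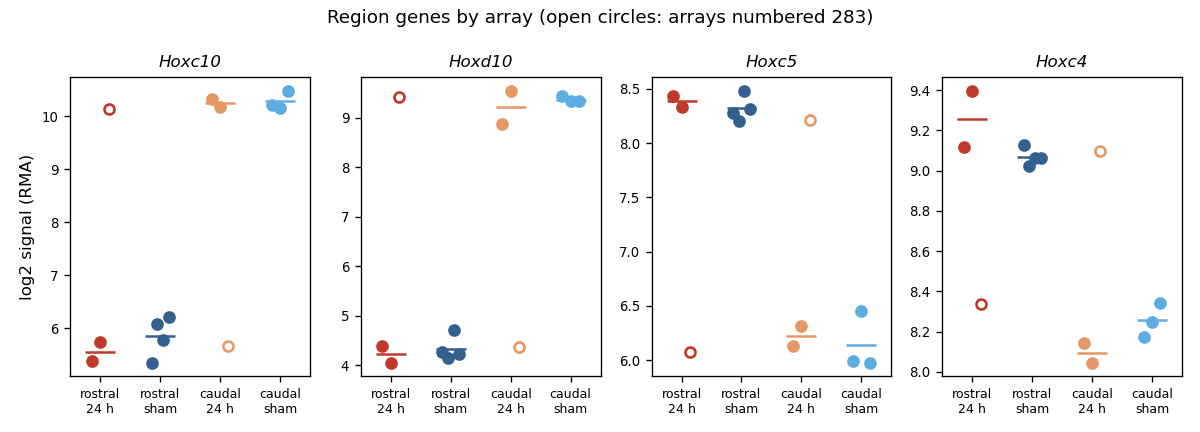
Log2 signal (vertical axes) of 4 Hox genes on each array of the rostral 24 h, rostral sham, caudal 24 h and caudal sham groups, with open circles for the arrays numbered 283 and lines for the group means without them. The rostral 24 h array 283 lies among the caudal arrays for Hoxc10 (10.14) and Hoxd10 (9.41), and the caudal array 283 lies among the rostral ones.

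The first question was which transcripts differed in rostral cord 24 h after the clamp. Across 18193 genes none passed a Benjamini-Hochberg adjusted p of 0.05 in limma, with array 283 (0%, smallest adjusted p = 0.222) or without it (0%, smallest adjusted p = 0.151). Unadjusted p-values under 0.05 were found for 1333 genes (7.33%) with array 283, of which 587 were higher (3.23%) and 746 lower (4.1%) at 24 h. Without it there were 871 (4.79%), with 438 higher (2.41%) and 433 lower (2.38%). The groups did not overlap for 632 genes that were higher (3.47%) and 792 that were lower (4.35%) with array 283, or 7.83% in all, and for 1279 (7.03%) and 1189 (6.54%), or 13.6% in all, without it. The genes below are therefore given by their values and not as changes. The limits on the size of any difference were narrow for most genes in these fits, which take the spread from the compared arrays alone. Genes of low signal are counted among them. With the spread pooled over all 6 groups, 141 genes with array 283 and 66 without it had an unadjusted p under 0.05. The 95% confidence interval of the difference lay within 1 log2 unit of 0 for 18145 genes (99.7%) with array 283 and for 18179 (99.9%) without it, and within 0.5 units for 97.6% and 98%. The median difference over all genes was -0.0056 and 0.0025, and the median standard error 0.08 and 0.088. A difference beyond 1 unit was measured for 3 genes with array 283 (the chemokine gene Ccl12, Hoxc10 and Hoxd10) and for 3 others without it, the neutrophil genes Ngp, S100a8 and S100a9.

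Among the 8 genes with the smallest p-values on the lower side were genes of vessel walls, axon injury, hypoxia and lymphoid cells. Nostrin, which moves endothelial nitric oxide synthase away from the membrane, had signals of 6.62, 6.55 and 6.47 at 24 h, against 6.99, 6.95, 7.02 and 7.06 in sham. Sprr1a, a small proline-rich protein of regrowing axons, had 6.22, 6.02 and 5.72 at 24 h, against 6.75, 6.80, 6.79 and 7.21 in sham. Every 24 h array lay below every sham array for both genes. In caudal cord Sprr1a was at 5.39 to 5.48 after sham, and at 7.36 on caudal array 283. The part of region in the Sprr1a value of rostral array 283 was not tested. The difference was -0.46 ± 0.07 (SE, limma adjusted p = 0.222) for Nostrin and -0.90 ± 0.13 (adjusted p = 0.222) for Sprr1a with array 283, and -0.42 ± 0.08 (adjusted p = 0.331) and -0.76 ± 0.12 (adjusted p = 0.227) without it. Ankrd37, an ankyrin repeat protein and a known target of hypoxia-inducible factor, had 6.00, 6.13 and 6.44 at 24 h, against 6.76, 6.85, 7.27 and 6.85 in sham. Gimap6, a GTPase of lymphocytes and endothelium, had 6.08, 6.07 and 5.94, against 6.37, 6.56, 6.50 and 6.36. The groups did not overlap for these genes either, and the differences with array 283 were -0.74 ± 0.13 and -0.42 ± 0.08 (SE, limma adjusted p = 0.556 for both). Without it they were -0.87 (adjusted p = 0.158) and -0.38 (adjusted p = 0.604). Cdca3, which helps cells to enter mitosis, differed by -0.38 with array 283 and -0.42 without it, and Bsg, the chaperone of lactate transporters, by -0.37 and -0.31. The sodium-proton exchanger Slc9b2 (-0.33 and -0.30) and the complement component C8g (-0.32 and -0.34) followed. One other probe set of Cdca3 had the opposite sign.

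On the higher side the smallest p-value belonged to Sbno2, a transcriptional regulator that interleukin 10 induces through STAT3. It had 7.44, 7.49 and 7.50 at 24 h, against 7.13, 7.18, 7.04 and 7.09 in sham, and every 24 h array lay above the sham range, with 1 of its 4 probe sets opposite in sign. The difference was 0.36 ± 0.06 (SE, limma adjusted p = 0.556) with array 283 and 0.35 ± 0.08 (adjusted p = 0.604) without it. Arhgap20, a GTPase-activating protein, had 8.77, 8.93 and 8.77 at 24 h, against 8.55, 8.46, 8.36 and 8.46 in sham, a difference of 0.37 with array 283 and 0.39 without it. Its relative Arhgap18 differed by 0.29 and 0.26, although its other probe set had the opposite sign. Rnf213, a ubiquitin ligase tied in humans to moyamoya disease of brain arteries, had 8.86, 8.88 and 9.30, against 8.69, 8.60, 8.45 and 8.53, so that array 283 lay above all others, and the difference was 0.44 with it and 0.30 without it. The Rab27 effector Exph5 (0.29 in both fits), the P5-type ATPase Atp13a5 (0.28 and 0.30) and Fgfrl1, a receptor-like protein that binds fibroblast growth factors (0.27 and 0.26), followed with non-overlapping groups. Mb, the oxygen-binding myoglobin of heart and red muscle, had 6.73, 6.34 and 6.32 at 24 h, against 6.15, 6.00, 5.84 and 5.97 in sham, a difference of 0.47 and 0.54. Beside it, the mean of 10 heart muscle genes was 6.01, 5.72 and 5.72 at 24 h and 5.70 to 5.79 in sham, with array 281 above the rest, and the part of such RNA in the value for Mb was not tested. Of the 10 heart muscle genes, 1 had an unadjusted p under 0.05 on the higher side with array 283 (background 3.23%) and 3 without it (background 2.41%). The 3 were Actc1 (0.26 and 0.31), Tnni3 (0.24 and 0.31) and Myl2 (0.32 and 0.57), of which Myl2 was at 7.05 on array 281 and 6.10 on array 282, against 5.66 to 6.45 in sham.

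**Figure D2:**
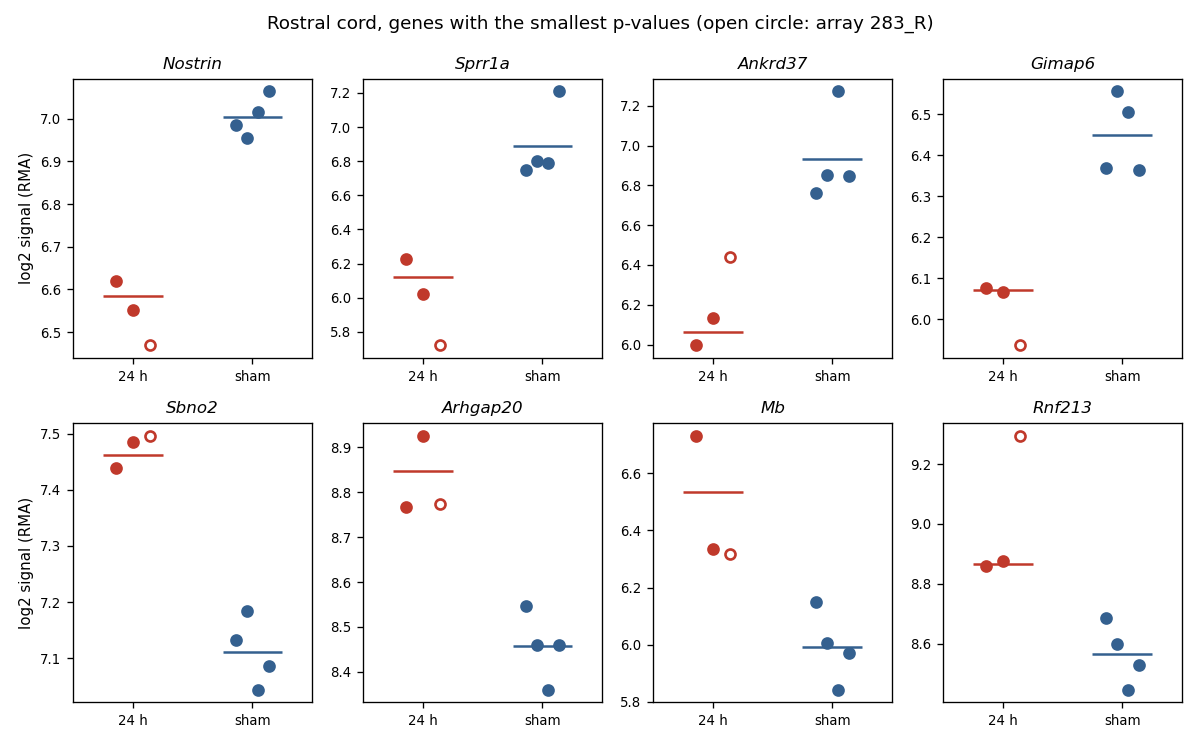
Log2 signal (vertical axes, each on its own range) of 8 genes with small p-values on the 3 rostral 24 h arrays and 4 rostral sham arrays, with an open circle for array 283 and lines for the group means without it. Nostrin, Sprr1a, Ankrd37 and Gimap6 are lower and the other 4 higher on every 24 h array than on every sham array, and no gene passed the adjusted threshold.

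Without array 283 the 8 smallest p-values on the lower side came to include the neutrophil genes Ngp, Ltf, S100a8 and S100a9, and Hmgb2. Ankrd37 stayed among them. On the higher side Pth2r, Asgr1, Ranbp3l, Kcnj13 and Fos came in. Asgr1 had 6.97, 6.80 and 6.36 at 24 h, against 6.45 to 6.53 in sham. Pth2r had 4.91, 4.96 and 4.64, against 4.51 to 4.60 in sham. Neutrophil granules hold proteins stored to kill microbes. Ngp, the neutrophilic granule protein, had 7.44 and 7.23 on 24 h arrays 281 and 282 and 8.66 on array 283, against 8.51, 8.74, 8.27 and 8.14 in sham. S100a8, a subunit of the calcium-binding protein calprotectin, had 8.27, 8.30 and 10.18 at 24 h, against 9.68, 10.01, 9.55 and 9.02 in sham. Arrays 281 and 282 thus lay below all sham arrays for both genes, and array 283 lay within the sham range for Ngp and above it for S100a8. The difference of Ngp was -1.08 ± 0.14 (SE, limma adjusted p = 0.151) without array 283 and -0.64 ± 0.27 (adjusted p = 0.675) with it, and that of S100a8 was -1.28 ± 0.20 (adjusted p = 0.165) and -0.65 ± 0.39 (adjusted p = 0.71). S100a9, the partner of S100a8, differed by -1.12 without array 283 and by -0.58 with it. The iron-binding lactoferrin gene Ltf differed by -0.65 without it and -0.38 with it, and the antimicrobial peptide gene Camp by -0.83 without it and -0.47 with it. Of 11 measured neutrophil genes, 6 had an unadjusted p under 0.05 on the lower side without array 283 (the background was 2.38%), and these 6 did not overlap sham (background 6.54%). With array 283, 2 had such a p (background 4.1%) and every gene of the list overlapped sham. The 6 genes without array 283 were Ngp, S100a8, S100a9, Ltf, Camp and Mmp8, the neutrophil collagenase (-0.23 without array 283 and -0.14 with it). The receptors Cxcr2 and Csf3r, which neutrophils use to find chemokine and growth factor, differed by 0.05 and -0.07 without array 283 and by 0.0025 and -0.08 with it. The median of the list was -0.23 without array 283 and -0.14 with it, and its mean signal was 6.69, 6.53 and 7.28 at 24 h, against 7.18, 7.27, 7.03 and 6.96 in sham. Some of these genes passed under other settings. With a trended and robust prior Ngp passed without array 283 (limma adjusted p = 0.0205), and without both array 283 and sham array 280, Ngp, S100a8, S100a9 and Camp passed. Granule transcripts were as high or higher in caudal cord, where Ngp was at 8.74 to 9.51 at 24 h without array 283 and at 8.56 to 10.68 after sham.

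**Figure D3:**
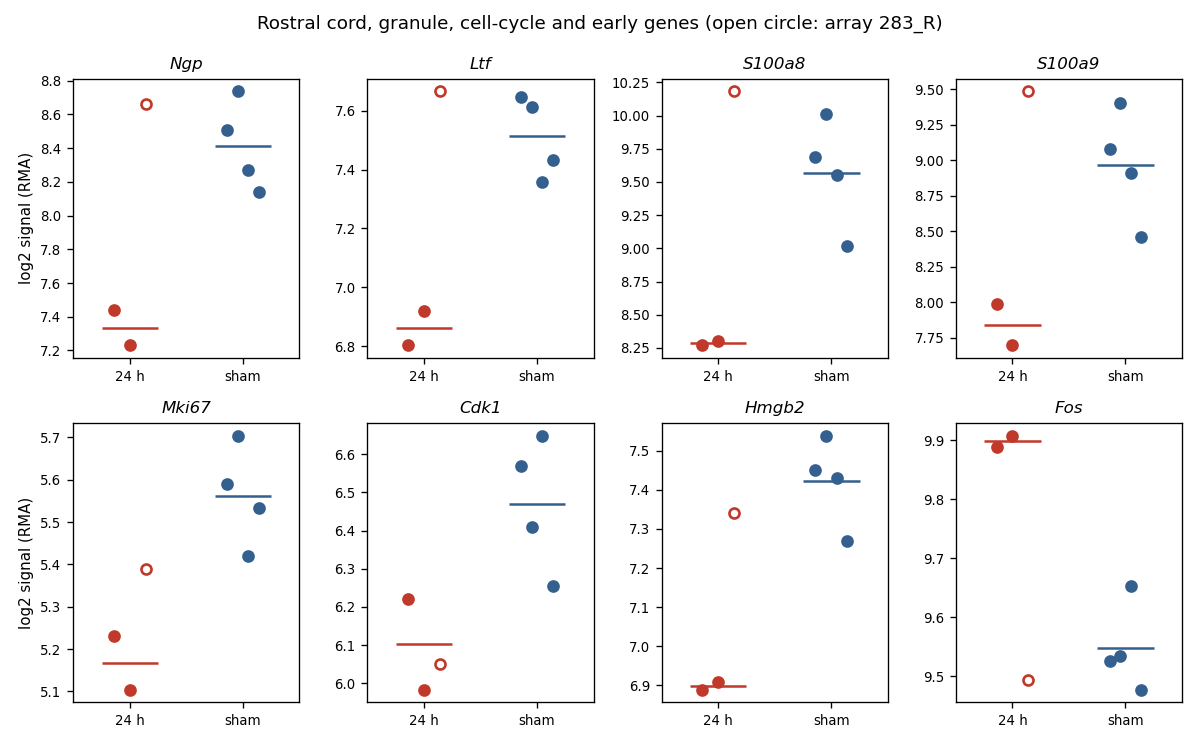
Log2 signal (vertical axes, each on its own range) of neutrophil genes (Ngp, Ltf, S100a8, S100a9), cell division genes (Mki67, Cdk1), Hmgb2 and Fos on the rostral 24 h and rostral sham arrays, with an open circle for array 283 and lines for the means without it. For the neutrophil genes arrays 281 and 282 lie below all 4 sham arrays while array 283 lies within or above the sham range.

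Of 16 measured cell cycle genes, 15 had a difference below 0 with array 283 and 14 without it, against a median of -0.0056 and 0.0025 over all genes. An unadjusted p under 0.05 on the lower side was found for 4 with array 283 (background 4.1%) and for 7 without it (background 2.38%). Mki67, a chromosome coat protein of cycling cells, had 5.23, 5.10 and 5.39 at 24 h, against 5.59, 5.70, 5.42 and 5.53 in sham. The mitotic kinase gene Cdk1 had 6.22, 5.98 and 6.05, against 6.57, 6.41, 6.65 and 6.25, and the survival and spindle gene Birc5 had 5.47, 5.78 and 5.63, against 6.15, 6.00, 6.15 and 5.79. All 24 h arrays were below all sham arrays for these 3 genes, the 3 of the list that did so with array 283 (background 4.35%). Without it 7 did (background 6.54%). On the higher side 0 of the list did, with array 283 or without it (background 3.47% and 7.03%). The gaps were small, with Birc5 at most 5.78 at 24 h and at least 5.79 in sham. The differences of Mki67, Cdk1 and Birc5 with array 283 were -0.32, -0.39 and -0.40, and none passed (limma adjusted p = 0.675 each). Without it they were -0.39, -0.37 and -0.40. Rrm2, a subunit of the enzyme that makes deoxynucleotides, differed by -0.25 with array 283 and -0.46 without it, with 1 of its 3 probe sets of the opposite sign, and the sign turned without array 281 (0.0079). Tyms, thymidylate synthase, differed by -0.14 and -0.30, with 2 of 4 probe sets opposite. On array 283 both genes were above every sham array. Hmgb2, a DNA-bending chromatin protein of proliferating cells, had 6.89, 6.91 and 7.34, against 7.45, 7.54, 7.43 and 7.27, a difference of -0.38 with array 283 and -0.52 without it. The median of the list was -0.11 with array 283 and -0.15 without it. Signals of some of these genes were low. The lower quartile of all probe sets was 5.19 to 5.27 on these arrays, with Tyms below it on every array and Mki67 close to it.

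Of 13 measured hypoxia and glycolysis genes, 3 had an unadjusted p under 0.05 on the lower side with array 283 (background 4.1%). On the higher side 1 did (background 3.23%), the stress-response gene Ndrg1 (0.16 and 0.12). Besides Ankrd37 the lower ones were Vegfa, the main growth factor of new vessels, with 8.20, 8.34 and 8.35 at 24 h, against 8.49, 8.57, 8.64 and 8.73 in sham, and Ldha, which turns pyruvate into lactate, with 10.63, 10.54 and 10.79, against 10.88, 10.97, 10.95 and 10.95. All 24 h arrays lay below all sham arrays. The differences were -0.31 ± 0.08 for Vegfa and -0.28 ± 0.07 for Ldha (SE, limma adjusted p = 0.675 for both), and -0.34 and -0.35 without array 283. Of the 13 genes, 10 were below 0, and the median was -0.09 with and without array 283. Without array 283, 3 had an unadjusted p under 0.05 on the lower side (background 2.38%) and 0 on the higher side (background 2.41%). The groups did not overlap for 4 on the lower side with array 283 (background 4.35%) and 6 without it (background 6.54%). On the higher side they did not overlap for 0 with it (background 3.47%) and 1 without it (background 7.03%). The 250 bases before the transcription start of Ankrd37 and of Ldha are printed because both genes are known hypoxia targets that stood among the lower genes here (RefSeq, GRCm38.p6). Capitals mark ACGTG, the core letters of a hypoxia response element, or CACGT, the same letters on the other strand.
Ankrd37, chr8:45999851-46000100, minus strand: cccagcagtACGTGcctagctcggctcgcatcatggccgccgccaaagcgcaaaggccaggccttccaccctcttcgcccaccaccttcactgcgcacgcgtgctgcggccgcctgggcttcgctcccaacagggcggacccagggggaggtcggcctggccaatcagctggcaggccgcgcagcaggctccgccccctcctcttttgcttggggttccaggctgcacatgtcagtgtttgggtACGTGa
Ldha, chr7:46845554-46845803, plus strand: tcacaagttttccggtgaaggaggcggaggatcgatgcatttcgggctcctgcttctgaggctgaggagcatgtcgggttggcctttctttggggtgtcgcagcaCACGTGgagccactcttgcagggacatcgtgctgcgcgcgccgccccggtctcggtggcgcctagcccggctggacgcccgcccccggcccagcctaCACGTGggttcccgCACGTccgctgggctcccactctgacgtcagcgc
The Ankrd37 window held 2 matches, which begin 241 and 6 bases before the start. The Ldha window held 5, of which 4 lie in a pair of CACGTG palindromes that match on both strands. Of the 2 windows of Vegfa, 1 held a match and the other none, and the second start of Ldha had none. The letters occurred on either strand in 16.6% of 32851 such windows, and a match is a description of letters only.

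The chemokine, cytokine, interleukin 6 and acute phase lists had medians close to 0. For 7 MHC class II genes the median was -0.02 with array 283 and -0.17 without it, with 4 and 7 of them below 0. It was 0.13 and -0.03 for 10 complement genes. For 14 reactive astrocyte genes it was 0.12 and 0.04, with 13 and 9 of them above 0. Ccl12, a chemokine that draws monocytes, had 7.75, 6.73 and 8.12 at 24 h, against 6.80, 6.72, 6.42 and 5.76 in sham. Array 282 lay within the sham range, and the difference was 1.11 ± 0.30 (SE, limma adjusted p = 0.675) with array 283 and 0.82 ± 0.29 (adjusted p = 0.901) without it. Socs3, the feedback inhibitor that STAT3 induces, had 6.72, 6.51 and 6.95, against 6.20, 6.45, 5.78 and 6.35, a difference of 0.53 with array 283 and 0.42 without it. Of 16 measured chemokine genes, Ccl12 was the one with an unadjusted p under 0.05 on the higher side, both with array 283 (background 3.23%) and without it (background 2.41%). On the lower side none had such a p with array 283, and Ccl5, a chemokine for T cells, had one without it (-0.13 and -0.24, background 2.38%). The median of the list was 0.02 and 0.04. Medians were 0.0049 and -0.01 for 21 cytokine and NF-kappaB genes, 0.08 and 0.07 for 14 genes of interleukin 6 signalling, and 0.04 and -0.01 for 15 acute phase and STAT3-induced genes. The acute phase list held Cp, the copper oxidase ceruloplasmin (0.24 and 0.27), and A2m, a protease inhibitor (-0.19 and -0.18). Tlr3, a receptor for double-stranded RNA, had 9.19, 9.25 and 9.48, against 9.14, 8.98, 8.90 and 9.06, and differed by 0.28 with array 283 and 0.20 without it.

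Interferon-stimulated genes depended on 1 array. All 12 measured genes had a difference above 0 with array 283 and 3 had an unadjusted p under 0.05 (background 3.23%), whereas none of the 12 did without it (background 2.41%). Ifit1, which binds viral RNA, had 7.54, 7.74 and 8.52 at 24 h, against 7.52, 7.59, 7.37 and 7.03 in sham, and array 283 was the highest. Usp18, a brake on interferon signalling, had 6.90, 6.75 and 7.93, against 6.75, 6.90, 6.49 and 6.34. The mean of the list was 7.27, 7.28 and 7.98 at 24 h, against 7.12 to 7.40 in sham, and its median difference was 0.17 with array 283 and 0.02 without it. The same array carried the region genes against its label, as given above, and a high mean of 7 Schwann cell genes (8.72, against 7.87 and 7.61 on arrays 281 and 282 and 7.67 to 7.90 in sham) and of 6 genes of sensory ganglion neurons (6.28, against 5.29 on both other 24 h arrays and 5.16 to 5.36 in sham). The part of these in the interferon values was not tested. Pirt, a channel regulator of sensory neurons, was at 7.24 on array 283 and at 5.75 and 5.63 on arrays 281 and 282, against 5.30 to 5.54 in sham. Drp2, a dystrophin-related protein of Schwann cells, was at 9.58 on array 283, 8.995 on array 281 and 8.78 on array 282, against 8.45 to 8.81 in sham.

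Stress and signalling lists were spread around 0. Of 17 glucocorticoid-induced genes the median was -0.06 with and without array 283. Sult1a1, a sulfotransferase, differed by 0.39 with array 283 and 0.37 without it, Ddit4, an inhibitor of mTOR, by -0.44 and -0.40, and the phosphatase gene Dusp1 by -0.25 and -0.23. Ddit4 had 10.81, 10.25 and 10.41 at 24 h, against 10.72 to 11.22 in sham, so that its groups overlapped. Among 14 immediate early genes, Fos, a transcription factor of recent cell activation, had 9.89, 9.91 and 9.49, against 9.53, 9.53, 9.65 and 9.48, a difference of 0.35 ± 0.08 (SE, limma adjusted p = 0.604) without array 283 and 0.22 with it. Nr4a1, a nuclear receptor of the same kind, differed by 0.16 with array 283 and 0.17 without it, and Egr3 by -0.37 and -0.21, with the other probe set of Egr3 opposite in sign. With array 283 medians lay between -0.06 and 0.05, and without it between -0.02 and -0.0057, for heat shock chaperones (12 genes), the unfolded protein response (14), NRF2 targets (12) and p53 targets (12). Pdia4, a protein-folding enzyme of the endoplasmic reticulum, had 8.99, 9.12 and 9.03, against 9.24, 9.34, 9.33 and 9.40, and differed by -0.28 ± 0.07 (SE, limma adjusted p = 0.675) with array 283 and -0.27 without it. Of 11 cholesterol synthesis genes, 9 were below 0 with array 283 and 8 without it, among them Lss (-0.21 and -0.20) and Fdps (-0.30 and -0.22), both with 1 other probe set of the opposite sign. Of 16 clock genes, 14 were above 0 with array 283 and 13 without it, with Bhlhe41, a repressor within the clock, at 0.16 and 0.19 (1 of its 2 probe sets opposite in sign), and the median of 0.07 was the same without array 283.

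No cell type marker passed the threshold. The medians with and without array 283 were 0.05 and 0.02 for 12 pan-neuronal genes, 0.03 and -0.07 for 9 motor neuron genes, and -0.0024 and -0.0034 for 12 astrocyte genes. They were -0.01 and -0.02 for 11 myelin genes and -0.0052 and 0.05 for 13 endothelial genes. Pan-neuronal means were 12.27, 12.32 and 12.32 at 24 h, against 12.36, 12.28, 12.21 and 12.26 in sham. Homeostatic microglial genes had a median of -0.08 in both fits, and 4 of the 11 were above 0, among them the fractalkine receptor Cx3cr1 (0.07 and 0.06) and the transcription factor Sall1 (0.09 and 0.0071). Siglech, a microglial lectin, had 7.92, 7.76 and 7.41 at 24 h, against 7.89, 8.15, 8.20 and 8.06 in sham. Gpr34, a lysophosphatidylserine receptor, differed by -0.21 with array 283 and -0.36 without it. In endothelium Pecam1, an adhesion protein of cell junctions, had 7.62, 7.58 and 7.32, against 7.32, 7.46, 7.39 and 7.16, a difference of 0.18 with array 283 and 0.27 without it, and Emcn, a sialomucin, differed by -0.24 with it and -0.13 without it. Slc38a5, an amino acid transporter of the blood-brain barrier, differed by 0.16 with array 283 and 0.22 without it, and the matrix protein gene Fn1 by 0.21 and 0.26. Of 6 inhibitory neuron genes 4 were above 0 with array 283 and 3 without it, with medians of 0.03 and -0.02, and the GABA synthesis gene Gad2 differed by 0.09 and 0.02. Somatostatin (Sst), a peptide of inhibitory interneurons, had 10.99, 10.98 and 11.19, against 11.24, 11.27, 11.32 and 11.16, a difference of -0.19 with array 283 and -0.26 without it. The enzymes Hpgd, which breaks prostaglandins down, and Pla2g3, a secreted phospholipase, differed by -0.38 and 0.24 without array 283 and by -0.22 and 0.25 with it. The glutamate receptor subunit Grin2b differed by 0.25 with it and 0.24 without it, although 2 of its 4 probe sets had the opposite sign. Over all 54 lists, the median was within 0.1 of 0 in 43 with array 283 and in 49 without it, and no member of any list passed.

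**Figure D4:**
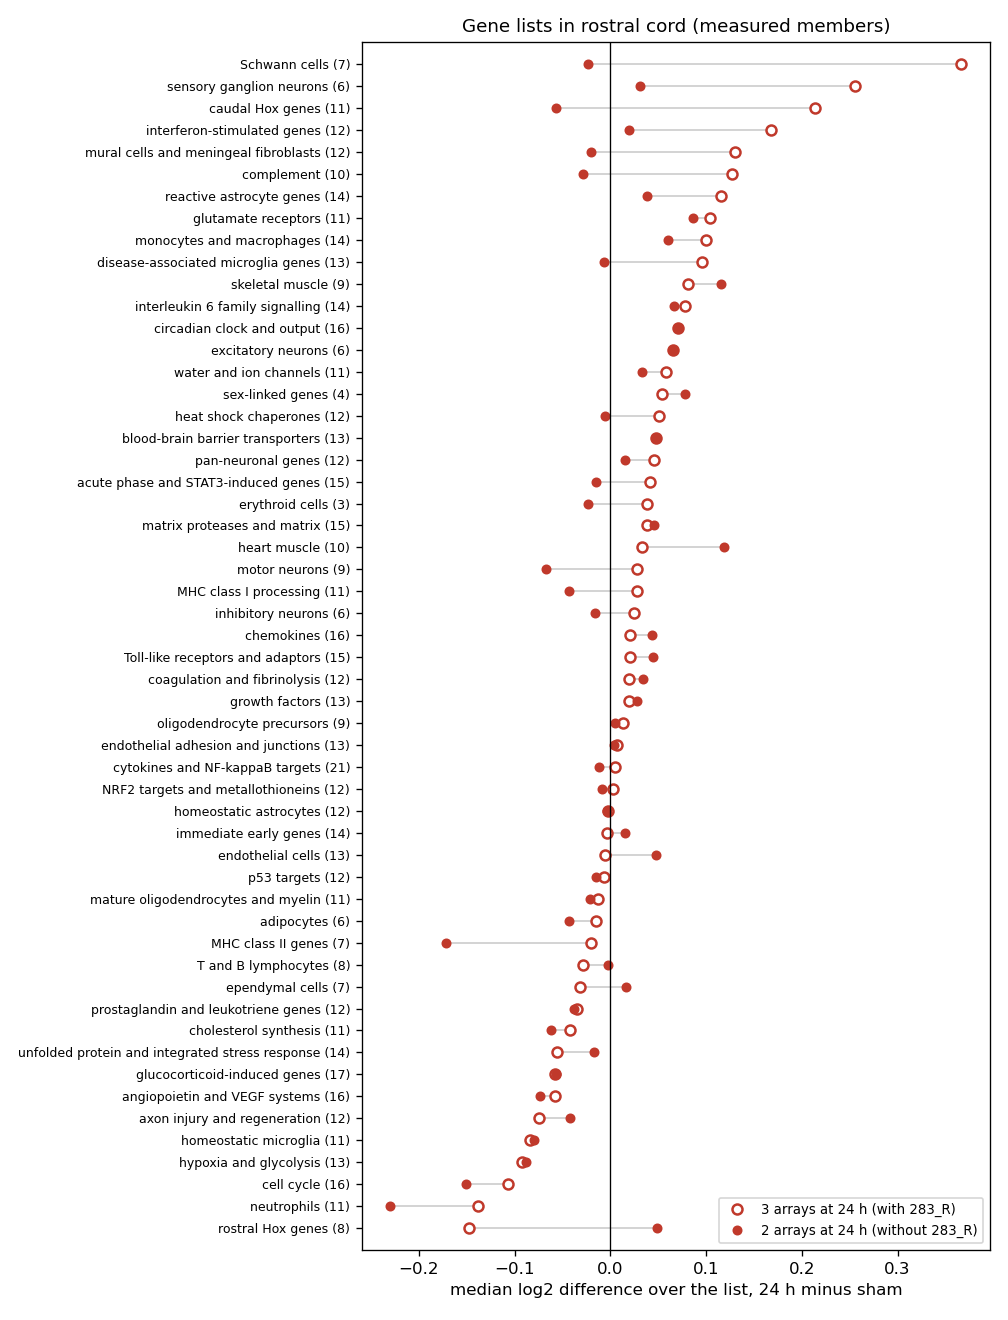
Median log2 difference (24 h minus sham, horizontal axis) over the measured members of each of 54 gene lists (number in brackets), with open circles for the fit with array 283 and filled circles for the fit without it. Schwann cell, sensory ganglion and Hox lists lie apart with array 283 and near 0 without it, and the neutrophil list (-0.14 and -0.23) is among the lowest in both.

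A second comparison asked where the 24 h difference in rostral cord differed from that in caudal cord. No gene passed with both arrays numbered 283 (0%), and 2214 genes had an unadjusted p under 0.05 (12.2%). Without both, 17 genes passed (0.0934%), and all 17 were lower in the rostral than in the caudal difference. Of 13 measured genes of disease-associated microglia 4 were among them (Lpl, Cd68, Clec7a and Gpnmb). The differences of the 17 genes in rostral cord lay between -0.24 and 0.16. Lpl, the lipase that microglia turn on as they take up myelin lipid, had 8.47 and 8.61 on rostral 24 h arrays 281 and 282, against 8.25 to 8.49 in rostral sham, and 9.76 and 9.73 on caudal 24 h arrays 281 and 282, against at most 8.15 in caudal sham. The difference of the differences was -1.52 ± 0.12 (SE, limma adjusted p = 0.000199). Ccl3, a chemokine of microglia, had 4.43 and 5.01 in rostral cord at 24 h, against 4.35 to 4.73 in rostral sham, and its difference was 0.16 in rostral and 4.17 in caudal cord, -4.00 ± 0.53 apart (SE, adjusted p = 0.0125). The endosomal protein gene Cd68 (-1.60), the complement receptor C3ar1 (-1.40), the microglial Fc receptor-like gene Fcrls (-1.15), the beta-glucan receptor Clec7a (-1.65), the Toll-like receptor Tlr2 (-1.31) and the inflammasome adaptor Pycard (-1.09) passed as well. On rostral array 283 these genes were above arrays 281 and 282, with Cd68 at 8.63, against 7.82 and 7.65. Lpl, Cd68, C3ar1 and Fcrls passed whichever of the 11 arrays was left out. The count of genes was then between 5 and 193 (193 without caudal array 282), and none passed with the spread pooled over all 6 groups.

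**Figure D5:**
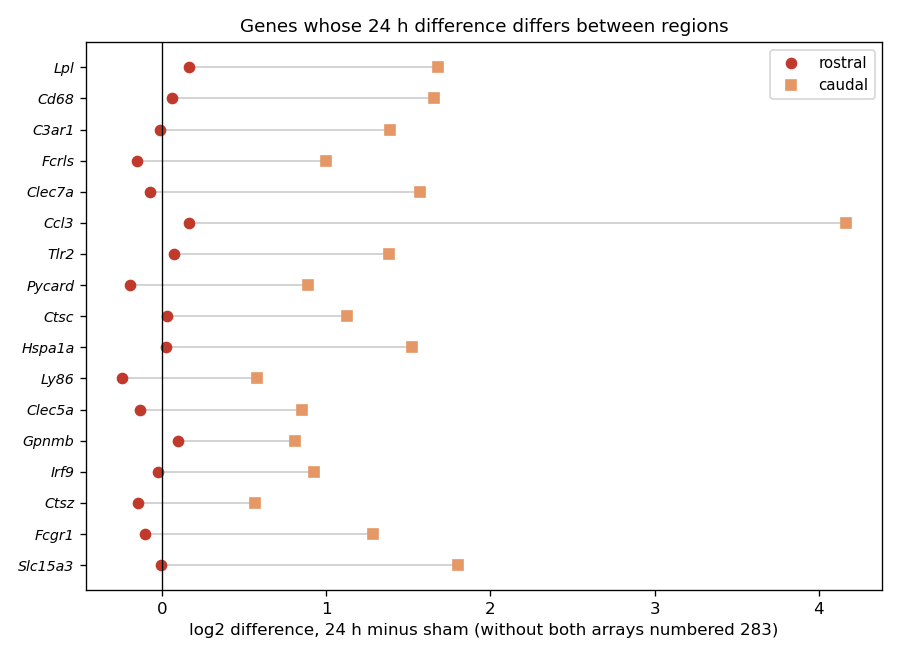
Log2 difference between 24 h and sham (horizontal axis) in rostral (circles) and caudal (squares) cord for the 17 genes whose difference differed between regions, without both arrays numbered 283. The rostral values lie between -0.24 and 0.16, and the caudal ones between 0.56 and 4.17.

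The third comparison set rostral cord at 48 h against rostral cord at 24 h, and it shares the 24 h arrays with the first. At 48 h, 275 genes passed (1.51%), of which 186 were higher (1.02%) and 89 lower (0.489%) than at 24 h, and 66 passed without array 283 (0.363%), 61 of them higher (0.335%) and 5 lower (0.0275%). The count depended on single arrays, with 66 to 1443 genes when 1 array was left out and 1443 without 48 h array 274, of which 730 were higher. It was 121 without array 273, 112 without 271, 106 without 281, 100 without 272 and 73 without 282. Sprr1a, which was at 6.75 to 7.21 in sham and 5.72 to 6.22 at 24 h, was at 6.93 to 7.20 at 48 h, and it was higher at 48 h than at 24 h by 1.04 (limma adjusted p = 0.00188) and by 0.90 without array 283 (adjusted p = 0.0113). Lpl was at 8.25 to 8.49 in sham, 8.47 to 9.38 at 24 h and 10.79 to 11.74 at 48 h, higher than at 24 h by 2.63 without array 283 (limma adjusted p = 5.59e-05). Heart muscle genes led the comparison, with Mb at 5.84 to 6.15 in sham, 6.32 to 6.73 at 24 h and 11.42 to 12.44 at 48 h. Of the 10 genes of that list 6 passed without array 283, and the mean of the list was 8.80 to 10.23 at 48 h. The part of heart RNA in the other 48 h differences, that of Lpl among them, was not tested. Rostral array 276, which entered no comparison and carried heart muscle transcripts, had Lpl at 10.84 and Cd68 at 7.90. Cd68 was at 7.67 to 8.89 at 48 h, against 7.47 to 7.77 in sham. Among neutrophil genes Ngp was at 6.94 to 7.33 at 48 h and 8.14 to 8.74 in sham. S100a8 was at 7.83 to 8.53 and 9.02 to 10.01. Mmp8 was at 5.36 to 5.63 at 48 h and 5.17 to 5.47 in sham. Rostral cord at 48 h was not tested against sham. Neither Ngp nor S100a8 differed between 48 h and 24 h past the threshold (limma adjusted p = 0.515 and 0.911 without array 283). Socs3 reached 7.37 to 10.96 and Ccl12 7.37 to 9.58 at 48 h, but neither differed from 24 h past the threshold (limma adjusted p = 0.164 and 0.339 without array 283).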

How the data were processed

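RNA of mouse spinal cord had been hybridised to 22 Affymetrix arrays. RMA (version not given) made the log2 values that the authors deposited, per the submitters' processing notes, and they were used unchanged. The file has 45101 probe sets, 64 of them controls. The platform annotation gives 1 symbol to 34945 of the rest, several to 932 and none to 9160. A gene was represented by the brightest of its probe sets with 1 symbol (highest mean over 21 grouped arrays), which left 18193 genes.

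Source names gave the groups. Rostral array 276, labelled both 24 h and 48 h, entered none. limma 3.58.1 under R 4.3.3, with statmod 1.5.0 for blocks, fitted group means by lmFit and eBayes to the 7 compared arrays alone, since the median gene SD of caudal 48 h arrays was 0.343, against 0.0885 to 0.105 in the other 5 groups. The region difference used 13 arrays and the comparison of 48 h with 24 h used 11. Tests were two-sided, and an adjusted p under 0.05 over all genes counted as a call. The fits were tested on simulated data.

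The members, the 54 gene lists and the tests were chosen with earlier results of these data known. Named were the 8 smallest p-values in each direction and up to 3 members of each list with the smallest p, both with and without array 283, and for the other comparisons the 8 smallest p-values that passed. Cxcr2, Csf3r, Gpnmb, Ndrg1, Ccl5, Cx3cr1, Sall1, Gad2 and the Hox genes of array 283 were chosen after their values were seen, and not every gene the rule allows is described. Clone and predicted names were left out. Arrays have no read depth, and their number limits the precision. Alternatives changed the summary of probe sets, the normalisation, the spread, the weights and the arrays kept.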

Additional observations from a re-analysis of the deposited data

Results flagged for a closer look

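Among 79 genes and 54 list means, a sham array lay far from the other 3 sham arrays (Dixon's test) for 4 genes and 1 list, and chance alone sets about 1 in 20 groups apart in this way. Sham array 280 was the highest of the sham arrays for Sprr1a (7.21) and for Lss (8.90) and the lowest for the mean of MHC class I processing genes (8.54). Sham array 278 was the highest for the transporter Slc38a5 (8.71), and sham array 279 the lowest for Tyms (4.63).

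The 24 h difference was lower in rostral than in caudal cord, by the test of that difference without both arrays numbered 283, for Lpl (-1.52), Cd68 (-1.60), C3ar1 (-1.40), Fcrls (-1.15), Clec7a (-1.65), Ccl3 (-4.00), Tlr2 (-1.31) and Pycard (-1.09).

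Rostral array 276, which entered no comparison, carried transcripts of heart muscle. The mean of 10 heart muscle genes on it was 4.21 above the sham mean, and 8 of the 10 were above every rostral sham array.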

How the results depend on the processing

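No paired analysis was possible for 24 h against sham because these groups share no title number. With array 283, no gene passed under any of the 10 processing alternatives or when 1 array was left out (141 to 2703 genes with an unadjusted p under 0.05). Without array 283, 1 gene (Ngp) passed with a trended and robust prior, and the other 9 alternatives gave 0. Leaving out 1 more array gave 0 to 4 genes, and the 4 without sham array 280 were Ngp (-1.17, adjusted p = 0.0257), S100a8 (-1.46, adjusted p = 0.00621), S100a9 (-1.29, adjusted p = 0.0257) and Camp (-0.97, adjusted p = 0.0368). Of 1238 values of single genes under the processing alternatives none turned its sign. Of 949 with 1 array left out 8 did: without array 281 Rrm2 (0.0079) and Myl2 (-0.043), without array 283 Hoxc10 (-0.29), Hoxd10 (-0.11) and Hoxc5 (0.065), and, with array 283 already out, Hoxd10 without sham array 279 (0.012) or array 282 (0.062) and Ccl3 without array 282 (-0.13).

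The region difference gave 0 genes with both arrays numbered 283, 17 without both, and 0 to 1 when a single array was left out (1 without array 281_R or 283_R). The title number as a random replicate block, where both regions share numbers, gave 0 genes with both arrays numbered 283 (block correlation 0.0089) and 26 without both (0.095). Without both, 1 more array left out gave 5 to 193 genes: 5 without 281_R or 279_R, 6 without 278_R, 7 without 278_C or 280_R, 9 without 282_R, 11 without 277_R and 193 without 282_C. Lpl, Cd68, C3ar1 and Fcrls passed in all 11 of these, Clec7a in 10, Ccl3 in 9 and Tlr2 and Pycard in 5 each. The spread pooled over all 6 groups gave 0 genes (143 with an unadjusted p under 0.05), and Pycard did not pass with the mean of probe sets (-0.51, adjusted p = 0.105). These further settings were chosen after seeing the data.

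For 48 h against 24 h, 275 genes passed, 66 without array 283 and 66 with the spread pooled over all 6 groups. Leaving out 1 array gave 66 to 1443 genes, with 1443 without 274_R, 121 without 273_R, 112 without 271_R, 106 without 281_R, 100 without 272_R and 73 without 282_R. The cause was not tested for any of these shifts.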
